A study of Mus musculus with 30 samples.

Results

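The globin and erythroid genes described here are those read in liver as a measure of blood content: the adult alpha globin genes Hba-a1 and Hba-a2, the adult beta globin genes Hbb-bs and Hbb-bt, Alas2 and Slc4a1. They were chosen by name, as 6 of 51826 gene identifiers in the count table, and all 6 were among the 19685 genes that passed the filter on low counts. The libraries came from frozen left lobes of the liver. All mice were males of the strain labelled C57BL16. In the irradiated arm, called 56Fe, mice were exposed to 56Fe ions (0.2 Gy, with an energy of 600 MeV/n), heavy charged particles of the kind found in cosmic radiation, and the control arm was not irradiated. Lobes were taken 30, 60, 120, 270 and 360 days later (months 1, 2, 4, 9 and 12), with 3 biological replicates in each of the 10 groups and 30 libraries in all. RNA came from cryotome slices of whole tissue, so it holds hepatocytes, other liver cells and whatever blood the slices contained. The age of the mice, and whether the livers were flushed of blood, are not given in the sources used here.

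Haemoglobin, the oxygen carrier of red cells, is built from alpha and beta globin chains that each hold a haem. Developing red cells make haem through Alas2, the erythroid form of the first and rate-limiting enzyme of the pathway, whereas hepatocytes use the related enzyme Alas1. Slc4a1 encodes band 3, the chloride and bicarbonate exchanger that anchors the red cell membrane to its skeleton. Mature red cells of mammals have no nucleus, and young red cells, the reticulocytes, still carry RNA for a short time. The adult liver is not normally a site of red cell production in the mouse, so globin RNA in liver is commonly read as a sign of blood in the tissue.

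The globin genes come in near-identical pairs, and the sequences below are shown because they limit how far reads can tell the members of a pair apart. On GRCm38 with Gencode M21, Hba-a1 lies on chromosome 11 at 32283511 to 32284465 and Hba-a2 on the same chromosome at 32296489 to 32297298, both on the plus strand with 3 exon blocks. Hbb-bs lies on chromosome 7 at 103826534 to 103828096 with 4 exon blocks, and Hbb-bt at 103812524 to 103813996 with 3, both on the minus strand. The coding sequences of Hba-a1 and Hba-a2 differ at 1 of 426 bases, C381T, and those of Hbb-bs and Hbb-bt at 1 of 441 bases, C417T. Positions are counted from 1 at the first base of the start codon, and the first-named gene's base comes first. The following 61-base stretches of exon sequence hold that base, in capitals, at the same place in both genes of a pair.
Hba-a1, chr11:32284313-32284373: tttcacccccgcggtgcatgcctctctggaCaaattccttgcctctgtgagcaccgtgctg
Hba-a2, chr11:32297130-32297190: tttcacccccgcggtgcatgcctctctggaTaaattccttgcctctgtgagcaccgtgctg
Hbb-bs, chr7:103826668-103826728: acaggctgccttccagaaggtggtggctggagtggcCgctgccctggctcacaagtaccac
Hbb-bt, chr7:103812659-103812719: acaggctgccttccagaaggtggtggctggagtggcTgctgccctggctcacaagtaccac
Of the 50-base windows of each gene's longest protein-coding transcript, 439 of 650 in Hba-a1 and 439 of 505 in Hba-a2 were found in both genes. For the beta pair 381 of 579 windows in Hbb-bs and 381 of 654 in Hbb-bt were shared. A read pair that falls wholly in such windows matches both genes, and GeneCounts, the counting mode of the aligner, keeps only reads with 1 mapping place. The counts of the 4 globin genes can therefore miss reads from the shared parts, and the split between the genes of a pair is uncertain. No 50-base window of Alas2 or Slc4a1 was found in another gene.

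The promoters are shown because the pairs differ there: the aligned bases are identical in the alpha genes and not in the beta genes. The 150 bases before the start annotated in RefSeq on GRCm38.p6 are printed 5′ to 3′ on the gene's strand, with matches to 4 motifs in capitals. RefSeq starts differ from the Gencode bounds of these genes, and each printed stretch lies partly or wholly within those bounds. The motifs were AGATAA (the GATA element), CACCC (the element read by Klf1), CCAAT, and TATAAA or ATATAA (the TATA box), searched on both strands.
Hba-a1, chr11:32283522-32283671: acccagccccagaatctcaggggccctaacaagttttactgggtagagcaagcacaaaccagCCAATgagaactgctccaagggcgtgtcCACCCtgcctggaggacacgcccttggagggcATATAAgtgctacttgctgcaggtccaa
Hbb-bs, chr7:103827929-103828078: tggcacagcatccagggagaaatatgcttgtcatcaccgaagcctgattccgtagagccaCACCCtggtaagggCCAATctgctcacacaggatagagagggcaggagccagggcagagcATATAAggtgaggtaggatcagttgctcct
Hbb-bt, chr7:103813924-103814073: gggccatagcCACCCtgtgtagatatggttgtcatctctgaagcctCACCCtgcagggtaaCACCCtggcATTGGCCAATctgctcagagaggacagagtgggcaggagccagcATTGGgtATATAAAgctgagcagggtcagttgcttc
Alas2, chrX:150547267-150547416: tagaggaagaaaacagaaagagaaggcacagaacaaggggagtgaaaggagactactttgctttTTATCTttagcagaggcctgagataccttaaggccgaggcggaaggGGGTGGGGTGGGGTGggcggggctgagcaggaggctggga
Aligned without gaps, the promoters of Hba-a1 and Hba-a2 were identical over 247 bases, and those of Hbb-bs and Hbb-bt shared 51% of 249 bases. An alignment without gaps misses likeness beyond an inserted or lost base, so the beta promoters can be more alike than this share. Over 250 bases before the start, AGATAA was found in 2 of the 5 member promoters in the RefSeq table (Hbb-bs and Alas2), against 9.97% of 32536 promoters. CACCC was found in all 5, against 52.1% of promoters, and CCAAT in 4, against 33.8%. TATAAA or ATATAA, which overlap in Hbb-bt, were found in all 5, against 16.6%. The match in Alas2 was on the opposite strand and outside the printed bases, so it is not called a TATA box here. The alpha promoters, identical over their aligned bases, count separately among the 5. These matches describe the letters of the windows, and binding was not measured.

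The libraries held 7995248 to 20215995 counts, and the hepatocyte markers of the tissue (10 genes, among them Alb and Apoa1) summed to 38300 to 113200 CPM, from 38300 to 96440 CPM in 56Fe livers and from 50710 to 113200 CPM in control livers. CPM here are counts scaled to library size with TMM factors, which correct for differences in library composition. The libraries of months 1 and 2 stood apart from those of months 4, 9 and 12 in composition, and the labels name no batch. The non-coding RNA Gm26917 took 3.04% to 7.57% of counts at months 1 and 2 and 0.452% to 2.04% at months 4, 9 and 12. Whether a step between these sets of months is one of time or of libraries cannot be told apart.

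Globin counts were low in all 30 libraries. The 4 globin genes together took 15.5 to 201 CPM without TMM scaling, with a median of 58.7 CPM, and the library with the lowest share had 126 globin counts (95% Wilson interval 13.02 to 18.45 CPM). The interval covers counting error only. At month 4 the globin share was 77.9 ± 19.8 CPM in 56Fe livers and 162 ± 37.6 CPM in control livers (SD, n = 3 each). Alas2 alone had more counts than the 4 globin genes together in most libraries, 26 of 30, with a ratio of 0.748 to 4.35 and a median of 1.60. Per kilobase of exon, the order of the mean levels was Hbb-bs (74.1 CPM per kb), Alas2 (42.8), Hba-a1 (11.2), Hbb-bt (5.65), Hba-a2 (1.06) and Slc4a1 (0.164). Hbb-bs lay above Alas2 in 21 of 30 libraries, 3 of 12 at months 1 and 2 and all 18 at the later months, so this pair had no fixed order. Alas2 lay above Hba-a1 and Hbb-bt above Hba-a2 in all 30 libraries. The order of Hba-a1 over Hbb-bt held in 25, and that of Hba-a2 over Slc4a1 in 25. Globin counts can miss reads from the shared parts of each pair, whereas Alas2 and Slc4a1 share no window with another gene. These orders, and the ratio of Alas2 to globin counts, therefore describe counts and may not be orders of RNA level.

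**Figure D1:**
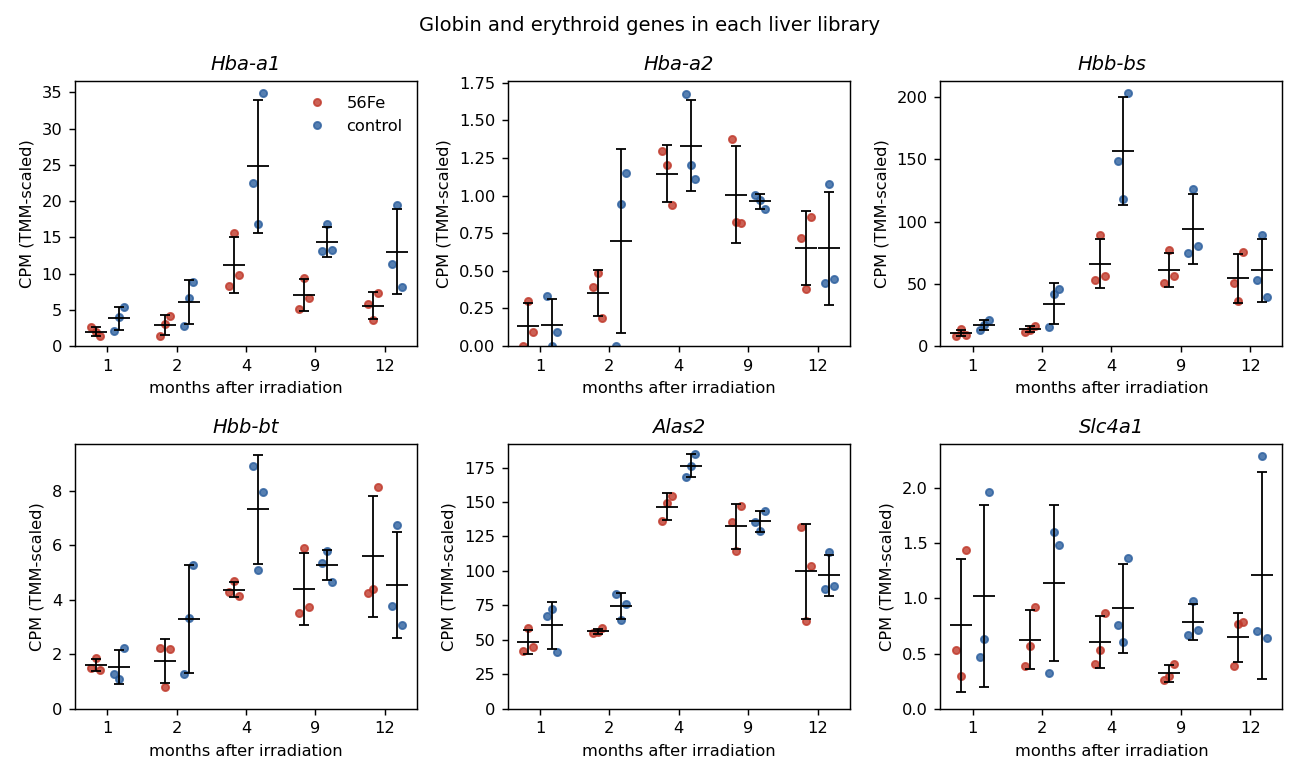
CPM (vertical axis, TMM-scaled, one scale per gene) of the 6 genes in each library by month after irradiation; points are libraries, red is 56Fe and blue is control, and black bars are the group mean and SD (n = 3). The Hbb-bs mean was 66.3 CPM in 56Fe and 157 CPM in control livers at month 4, and Hba-a1 was lower in 56Fe by group mean at each of the 5 months.

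Hbb-bs, the beta globin with the most counts, had 8.50, 13.4 and 9.23 CPM in 56Fe livers at month 1, against 13.3, 16.9 and 20.6 CPM in control livers. At month 2 it had 11.3, 13.3 and 16.3 CPM in 56Fe livers, against 14.99, 41.9 and 45.7 CPM in control livers. At month 4 it had 53.1, 89.2 and 56.7 CPM in 56Fe livers, against 149, 118 and 203 CPM in control livers. The arms overlapped at months 1 and 2, and at month 4 all 3 irradiated livers lay below all 3 controls. At month 9 it had 50.4, 76.9 and 56.7 CPM in 56Fe livers, against 75.2, 126 and 80.6 CPM in control livers. At month 12 it had 50.9, 36.5 and 75.6 CPM in 56Fe livers, against 53.2, 89.3 and 39.8 CPM in control livers. The arms overlapped at both of these months, and at month 12 the highest irradiated liver exceeded 2 of the 3 controls.

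Hba-a1, the alpha globin with the most counts, was lower in the mean of the 56Fe livers at all 5 months. It had 2.66, 1.94 and 1.35 CPM in 56Fe livers at month 1, against 2.13, 3.99 and 5.35 CPM in control livers. At month 2 it had 1.43, 3.08 and 4.14 CPM in 56Fe livers, against 2.84, 6.69 and 8.85 CPM in control livers. These values overlapped between arms. At month 4 it had 8.27, 15.6 and 9.84 CPM in 56Fe livers, against 22.6, 16.9 and 34.9 CPM in control livers. At month 9 it had 5.08, 9.45 and 6.69 CPM in 56Fe livers, against 13.1, 16.8 and 13.3 CPM in control livers. At month 12 it had 5.75, 3.63 and 7.30 CPM in 56Fe livers, against 11.4, 19.5 and 8.12 CPM in control livers. At each of months 4, 9 and 12 the 3 irradiated livers lay below the 3 controls. How many of all genes separated the arms in this way is not given here. Such separations, for any member at any month, are therefore a description only.

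The minor genes of each pair had few counts. Hbb-bt ranged from 0.811 to 8.16 CPM in 56Fe livers and from 1.09 to 8.92 CPM in control livers. The arms overlapped at 4 of 5 months, and at month 4 Hbb-bt averaged 4.38 ± 0.273 CPM in 56Fe livers and 7.32 ± 1.99 CPM in control livers (SD, n = 3 each), without overlap. Hba-a2 had 0 to 22 counts a library and was at 0 in 3 libraries, with 0 to 1.38 CPM in 56Fe livers and 0 to 1.68 CPM in control livers, which overlapped at every month. Hba-a1 had 12.7 times the counts of Hba-a2 over all libraries and 3.96 times per window of its own sequence. The windows were taken from the longest annotated transcript, 699 bases for Hba-a1 and 554 for Hba-a2, so the second ratio depends on that choice. Hbb-bs had 14.4 times the counts of Hbb-bt and 19.8 times per own window.

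Alas2 was the member with the most counts, 441 to 2631 a library. It averaged 56.4 ± 1.86 CPM in 56Fe and 74.4 ± 9.57 CPM in control livers at month 2 (SD, n = 3 each), with 54.9, 55.8 and 58.5 CPM in 56Fe livers, against 83.2, 64.2 and 75.7 CPM in control livers. At month 4 it had 136, 149 and 155 CPM in 56Fe livers, against 168, 176 and 185 CPM in control livers. At month 12 it had 132, 63.6 and 104 CPM in 56Fe livers, against 87.2, 114 and 89.4 CPM in control livers. The arms did not overlap at months 2 and 4 and overlapped at months 1, 9 and 12. Alas2 lies on chromosome X at 150547375 to 150570638 on the plus strand. It shares 311 exon bases with Apex2, a DNA repair gene on the other strand with 107 to 331 counts, and the strand setting of the counting is not given in the sources used here, so reads of these bases are uncertain.

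Slc4a1, on chromosome 11 at 102348824 to 102366203 on the minus strand, was close to the limit of these libraries, with 3 to 34 counts each. At month 9 it had 0.258, 0.300 and 0.410 CPM in 56Fe livers, against 0.672, 0.974 and 0.714 CPM in control livers, without overlap. At the other months the arms overlapped. The highest value, 2.29 CPM, was in replicate 2 of the control livers of month 12, which also had the highest Hba-a1 and Hbb-bs of its group. That liver also stood apart in markers of neutrophils and of Kupffer cells. Its summed neutrophil level was 75.5 CPM, against 3.86 and 3.32 CPM in the other livers of its group. Its summed Kupffer cell level was 1783 CPM, against 415.2 and 434.6 CPM. Replicate 2 of the 56Fe livers of month 12 also had the highest neutrophil level of its group, 26.7 CPM, against 3.01 and 3.58 CPM. Unlike the control liver, it had the lowest Hba-a1 and Hbb-bs of its group, 3.63 and 36.5 CPM.

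The first comparison asked whether irradiated and control livers differed at each month. By edgeR 0 of the 6 genes were called at month 1, 2, 4, 9 or 12 in the quasi-likelihood test with Benjamini-Hochberg adjustment over all 19685 genes at 0.05. Over all genes tested, 4.6%, 4.36%, 3.59%, 1.66% and 0.0% were called at these months. At an unadjusted p under 0.05 the counts of members were 0, 4, 2, 1 and 1, where 16.9%, 21.6%, 19.1%, 16.1% and 13.5% of all genes had one, so the single member at months 9 and 12 is near that share. DESeq2 called 0, 1, 2, 0 and 0 members, among 1190, 1427, 1265, 875 and 149 genes. Limma voom called the same numbers of members, among 2000, 3668, 2002, 838 and 7 genes. The smallest adjusted p-values were those of Hbb-bs at month 2, with a log2 fold change of -1.33 ± 0.39 (SE) and an adjusted p of 0.0536, and at month 4, with -1.24 ± 0.37 and 0.0658. For Hba-a1 the log2 fold changes were -0.91 ± 0.51, -1.13 ± 0.47, -1.14 ± 0.41, -1.02 ± 0.42 and -1.23 ± 0.43 at months 1, 2, 4, 9 and 12, with adjusted p-values of 0.123 to 0.397.

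The second comparison asked whether the mean of the 5 monthly contrasts differed from 0. A call in it does not show a difference at every month. Hba-a1 and Hbb-bs were lower in 56Fe livers in this test, and the other 4 genes did not pass the test. Hba-a1 averaged 5.75 CPM in 56Fe groups and 12.4 CPM in control groups, a log2 fold change of -1.09 ± 0.20 (SE), 2.12-fold lower, with an adjusted p of 0.00417 by edgeR. Hbb-bs averaged 41.2 CPM in 56Fe groups and 72.6 CPM in control groups, a log2 fold change of -0.81 ± 0.17, 1.75-fold lower, with an adjusted p of 0.0105. At month 12 alone Hbb-bs had -0.16 ± 0.37, with an adjusted p of 0.887 by edgeR. The count was 2 of 6 members, both lower, where 5.26% of all genes were called and 2.81% were called lower. Leaving out any 1 of the 30 libraries kept both calls, with log2 fold changes of -1.16 to -0.99 for Hba-a1 and -0.88 to -0.72 for Hbb-bs. Without replicate 2 of the control livers of month 12, described above, they were -0.99 for Hba-a1 and -0.72 for Hbb-bs. In bulk tissue, fewer red cells and less globin RNA per cell cannot be told apart.

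The other members had negative mean log2 fold changes that did not pass. Slc4a1 averaged 0.592 CPM in 56Fe groups and 1.01 CPM in control groups, with a log2 fold change of -0.81 ± 0.28 and an adjusted p of 0.0826. Alas2 averaged 96.6 CPM in 56Fe groups and 109 CPM in control groups, with -0.20 ± 0.09 and 0.172. Hbb-bt had -0.31 ± 0.18 with an adjusted p of 0.323, and Hba-a2 had -0.26 ± 0.32 with 0.676. With the counts of each near-identical pair added before the fit, the alpha pair had -1.03 ± 0.19 with an adjusted p of 0.00404 and the beta pair -0.77 ± 0.17 with 0.0116.

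**Figure D2:**
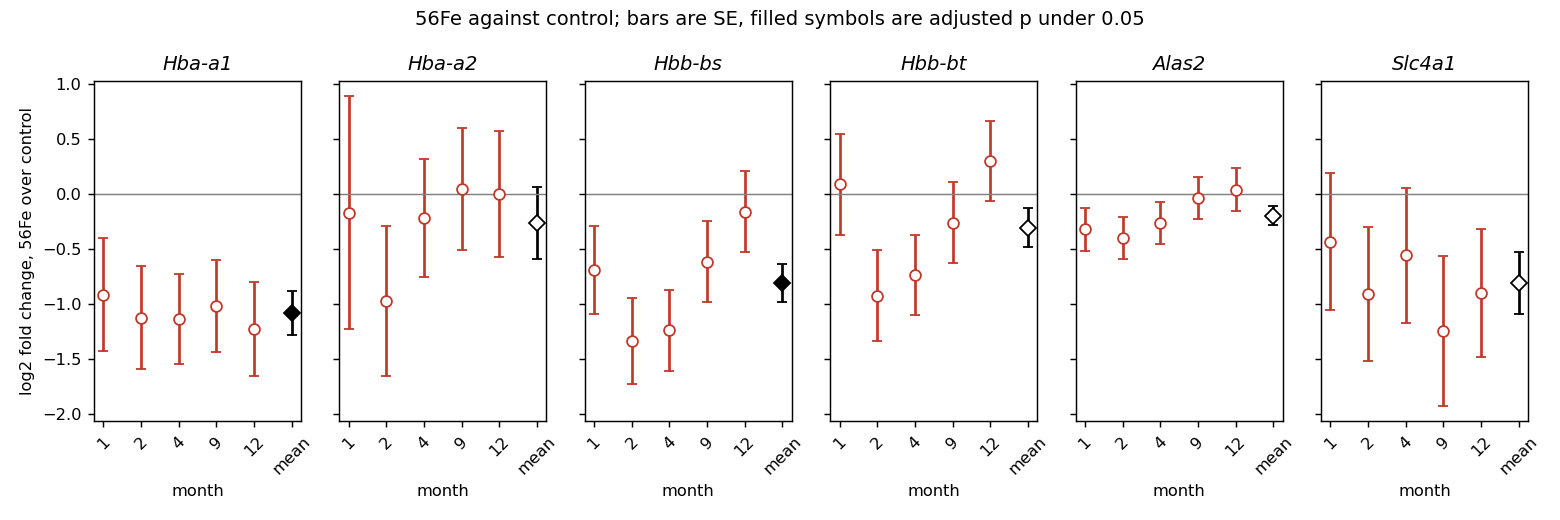
Log2 fold change of 56Fe over control (vertical axis) for each gene at months 1, 2, 4, 9 and 12 (circles) and as the mean over months (diamonds), with SE bars; filled symbols have an adjusted p under 0.05. The filled symbols are the means of Hba-a1 at -1.09 and Hbb-bs at -0.81.

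The difference was also computed within the sets of months that differed in composition, an alternative added after the data were seen. Within months 1 and 2 the log2 fold change was -1.02 ± 0.35 for Hba-a1, with an adjusted p of 0.0634, and -1.01 ± 0.28 for Hbb-bs, with 0.0238. There 1 of 6 members was called, where 10.4% of all genes were. Within months 4, 9 and 12 it was -1.13 ± 0.24 for Hba-a1, with an adjusted p of 0.0838, and -0.67 ± 0.21 for Hbb-bs, with 0.243. There 0 of 6 members were called, where 0.0203% of all genes were, and the unadjusted p-values were 0.000113 and 0.0047. With a covariate for the level of Gm26917, Hba-a1 kept its call (-0.99, adjusted p = 0.0429) and Hbb-bs lost it (-0.68, adjusted p = 0.0965), while 108 genes were called in all, against 1035 without it. The Gm26917 share differed between arms at some months. It was 6.77 ± 0.693% in 56Fe and 4.10 ± 1.72% in control livers at month 1, and 5.65 ± 1.13% in 56Fe and 4.03 ± 0.719% in control livers at month 2. At month 4 it was 0.915 ± 0.0807% in 56Fe and 0.490 ± 0.0196% in control livers. It was 0.520 ± 0.0625% in 56Fe and 0.500 ± 0.0419% in control livers at month 9, and 0.870 ± 0.1503% in 56Fe and 1.65 ± 0.360% in control livers at month 12 (SD, n = 3 each). Beyond the covariate, the part of the Gm26917 share in the Hba-a1 and Hbb-bs differences was not tested.

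The test of whether the irradiation effect differed between months called 0 of 6 members, with adjusted p-values of 0.337 to 0.994, where 11% of all genes were called. No member had an unadjusted p under 0.05 there, where 29.5% of all genes had one. DESeq2 and limma voom also called 0 members, among 3792 and 4416 genes.

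The ratio of beta to alpha globin counts differed between arms at the later months, given here as a description. At month 9 it was 8.35, 8.07 and 8.06 in 56Fe livers, against 5.71, 7.45 and 5.995 in control livers. At month 12 it was 8.53, 10.2 and 10.3 in 56Fe livers, against 4.83, 4.67 and 5.01 in control livers. The arms did not overlap at these months. At month 4 the ratio was 5.75 ± 0.222 in 56Fe livers and 6.40 ± 0.485 in control livers, and at months 1 and 2 it was 3.77 to 7.40 in 56Fe livers and 4.21 to 5.92 in control livers (SD, n = 3). Different shares of the alpha and beta transcripts can be mapped to 1 place, so the ratio compares libraries and is not a ratio of chains.

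**Figure D3:**
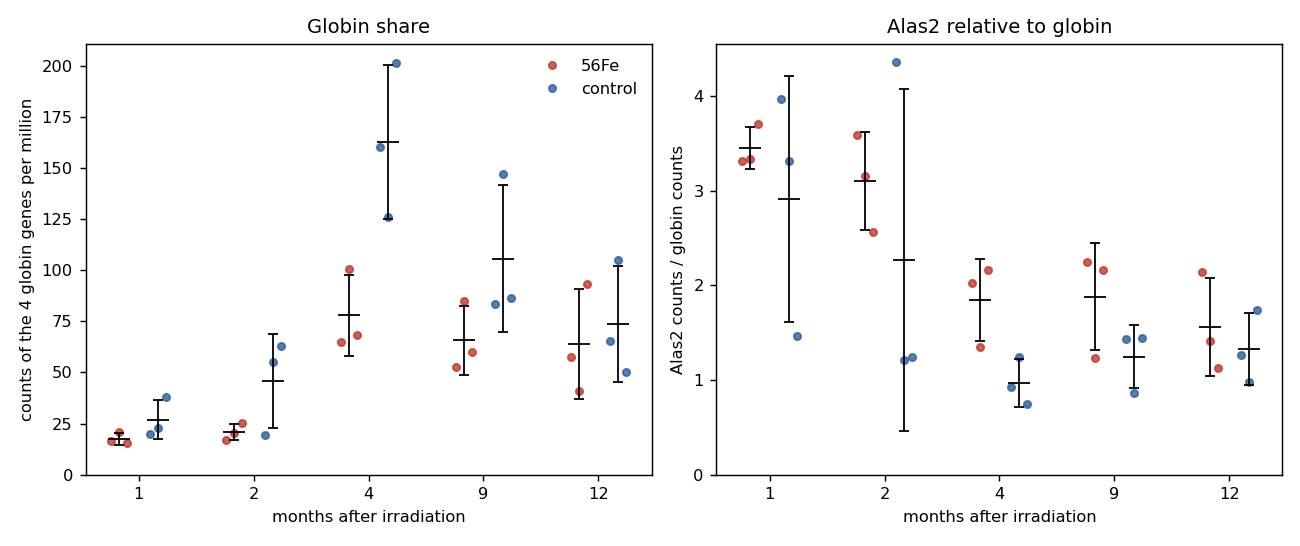
Left, the 4 globin genes together in CPM without TMM scaling; right, Alas2 counts divided by globin counts; both by month in each library, with red for 56Fe and blue for control, and with the group mean and SD in black (n = 3). At month 4 the globin share was 77.9 CPM in 56Fe and 162 CPM in control livers, and the Alas2 ratio was 1.85 in 56Fe and 0.972 in control livers.

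The last comparison asked how the genes changed over the year within each arm. Of the 6 members 5 changed over the months in 56Fe livers and 5 in control livers, all but Slc4a1, where 59.0% and 58.3% of all genes were called. In 56Fe livers the group means of Hbb-bs in order of month were 10.4, 13.6, 66.3, 61.3 and 54.4 CPM, with an adjusted p of 4.71e-06 by edgeR. In control livers they were 16.9, 34.2, 157, 94.1 and 60.8 CPM, with an adjusted p of 4.03e-06. Alas2 had 48.4 CPM at month 1 and 146 CPM at month 4 in 56Fe livers (adjusted p = 3.98e-08), and 60.5 and 176 CPM in control livers (adjusted p = 3.95e-07). The step between months 2 and 4 coincides with the split of the libraries described above. With a covariate for Gm26917, 0 of 6 members were called in either arm, and the genes called in all numbered 104 in 56Fe livers and 2409 in control livers, against 11623 and 11486 without it.

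Neighbouring months within a set of libraries showed no called member in either arm. In 56Fe livers 0.00508% of all genes were called between months 2 and 1, 3.73% between months 9 and 4 and 0.3% between months 12 and 9. In control livers 9.8%, 0.0% and 15.9% were called in the same order. At an unadjusted p under 0.05 the counts of members were 0, 0 and 1 in 56Fe livers, where 12.1%, 18.9% and 16.2% of all genes had one, and 3, 0 and 1 in control livers, where 25.4%, 6.91% and 30.8% had one. The single gene at months 12 and 9 was Alas2 in both arms. DESeq2 called 1 member between months 2 and 1 in control livers, among 2238 genes. Voom called 1 between months 12 and 9 in control livers, among 4087 genes, and neither called one elsewhere.

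The members were then compared from liver to liver. On log2(CPM + 1), Hba-a1 and Hbb-bs had a Pearson r of 0.897 and a Spearman rho of 0.860 over the 12 libraries of months 1 and 2. Their permutation p-values, adjusted over the 15 pairs, were 0.00135 and 0.0109. Over the 18 libraries of months 4, 9 and 12 r was 0.899 and rho 0.893, with adjusted permutation p-values of 0.00015 and 0.0003. Without the 2 libraries farthest from the median r was 0.775 and 0.826 in these sets. On deviations from the group means, permuted within groups, r was 0.883 and rho 0.895, with adjusted p-values of 0.0003 and 0.00015, and r was 0.85 without the 2 farthest libraries. Livers with more alpha globin RNA than others of their group also had more beta globin RNA.

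Slc4a1 varied with 3 of the 4 globin genes within groups, and no such relation was detected for Alas2. On deviations from group means the r of Slc4a1 with Hbb-bs was 0.612 and rho 0.584, with adjusted permutation p-values of 0.0307 and 0.0276, and r was 0.455 without the 2 farthest libraries. With Hba-a2 it was not detected (r 0.314 and rho 0.176, adjusted permutation p = 0.427 and 0.612). Over the 18 libraries of months 4, 9 and 12, without removing group means, Slc4a1 and Hbb-bs had r 0.44 and rho 0.449, with adjusted permutation p-values of 0.0851 for both. For Alas2 and Hbb-bs r was 0.0915 and rho 0.147, with adjusted permutation p-values of 0.758 and 0.612. Over the same 18 libraries they were 0.67 and 0.55, with adjusted permutation p-values of 0.00885 and 0.0504, and r was 0.494 without the 2 farthest libraries. For Alas2 and Hba-a1 r was 0.0328 and rho 0.0385, with adjusted permutation p-values of 0.888 and 0.865. For Hbb-bt and Hbb-bs r was 0.787 and rho 0.675, with adjusted permutation p-values of 0.00127 and 0.0124. All 15 pairs of members were compared.

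**Figure D4:**
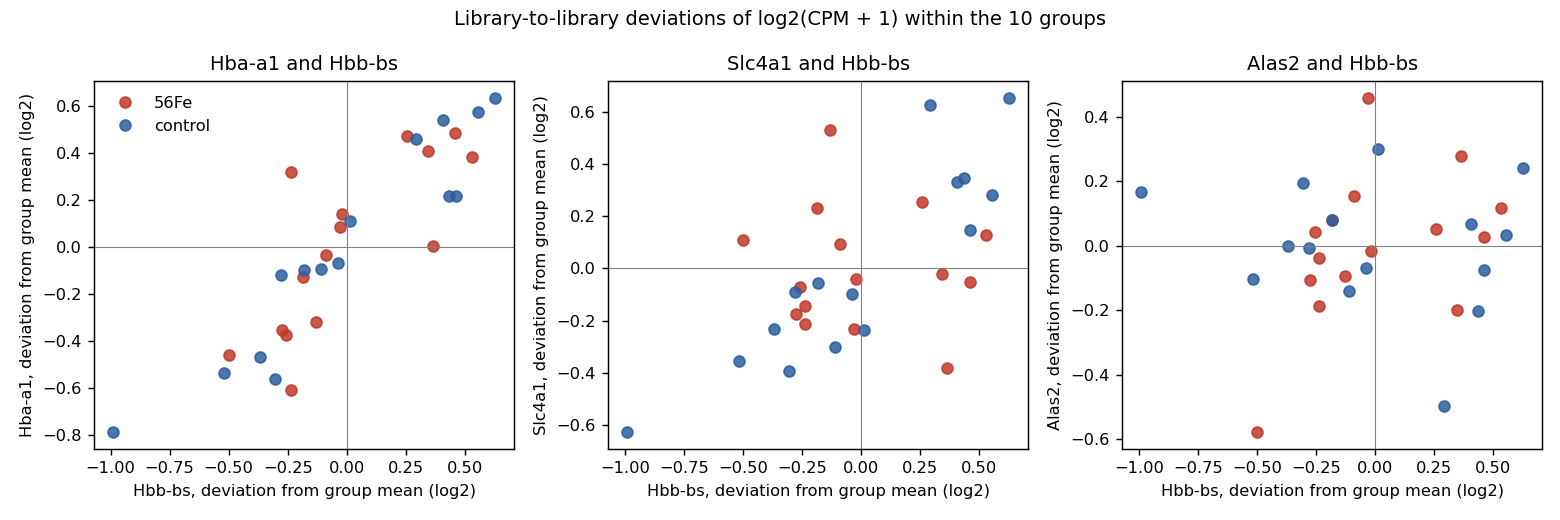
Deviation of log2(CPM + 1) from the group mean for Hbb-bs (horizontal axes) against Hba-a1, Slc4a1 and Alas2 (vertical axes) in each of the 30 libraries, red for 56Fe and blue for control. The points of Hba-a1 lie along a line with Hbb-bs (r = 0.883), those of Slc4a1 scatter more (r = 0.612), and those of Alas2 most (r = 0.0915).

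Some genes that mark the red cell lineage had few counts in these livers, while other genes of the same lists, which other cells also express, were abundant. The summed level of the membrane list was 217.6 to 310 CPM in 56Fe livers and 265.1 to 345 CPM in control livers. Gata1 (the master erythroid transcription factor) had 0 to 7 counts a library and was not tested. Epb42 (protein 4.2, a partner of band 3) averaged 0.616 ± 0.289 CPM in 56Fe livers and 0.525 ± 0.406 CPM in control livers (SD, n = 15 each). Ank1 (ankyrin) averaged 0.979 ± 0.352 CPM in 56Fe and 1.08 ± 0.444 CPM in control livers. Of 20 genes of the red cell membrane, its skeleton and blood group antigens 15 were tested, Slc4a1 included, and 0 were called for the mean over months by edgeR, with 3 at an unadjusted p under 0.05, where 22.1% of all genes had one. Their median log2 fold change was 0.07, against -0.002 for all genes. Of the erythroid transcription factors and regulators 8 of 11 were tested, and edgeR called 0 for that mean, with 0 at an unadjusted p under 0.05. Among them Klf1, which activates the beta globin gene, averaged 2.74 ± 0.772 CPM in 56Fe and 3.19 ± 0.954 CPM in control livers. Epor, the erythropoietin receptor, averaged 0.813 ± 0.307 CPM in 56Fe livers and 0.902 ± 0.334 CPM in control livers.

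Genes of late red cell development and of haem synthesis were called lower in 56Fe livers in small number. Of 20 late erythroblast and reticulocyte genes 16 were tested. In the mean over months, where 2.81% of all genes were called lower, 3 of these genes fell with 0 higher. They were Bnip3l, which clears mitochondria from reticulocytes (log2 fold change -0.24 ± 0.06, adjusted p = 0.023), Prdx2, an antioxidant enzyme abundant in red cells (-0.30 ± 0.07, adjusted p = 0.0115), and Fech, which inserts iron into haem (-0.20 ± 0.06, adjusted p = 0.0476). Prdx2 averaged 64.2 ± 20.7 CPM in 56Fe livers and 77.9 ± 21.7 CPM in control livers (SD, n = 15 each). The list's median was -0.16. Bpgm, Car1 and Car2, red cell enzymes, had mean log2 fold changes of -0.17, -0.24 and -0.28 and adjusted p-values of 0.261, 0.449 and 0.278.

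All 12 haem synthesis genes, Alas2 included, were tested. In the mean over months, where 2.81% of all genes were called lower, 3 of these genes fell with 0 higher, and Fech counts in both lists. Besides Fech these were Alad, the second enzyme of the pathway (-0.23 ± 0.06, adjusted p = 0.0356), and Urod, a later one (-0.23 ± 0.06, adjusted p = 0.0278). Alad averaged 91.4 ± 16.8 CPM in 56Fe and 106 ± 18.5 CPM in control livers. Urod averaged 63.0 ± 15.7 CPM in 56Fe livers and 72.5 ± 12.9 CPM in control livers. The list's median log2 fold change was -0.14. Hepatocytes make haem too, so these genes are not specific to red cells. Single libraries decided some of these calls. Of the 30 fits that each left out 1 library, Fech lost its call in 26, Alad in 18, Urod in 11 and Bnip3l in 3, and Prdx2 in 0. With the Gm26917 covariate, and within months 4, 9 and 12 alone, each of Bnip3l, Prdx2, Fech, Alad, Urod and Slc48a1 lost its call, Prdx2 with a log2 fold change of -0.21 (adjusted p = 0.178) and -0.18 (adjusted p = 0.477). Fech, Alad, Urod and Slc48a1 also lost it with upper quartile factors and with no filter on low counts. Over the left-out libraries their log2 fold changes stayed negative, the one nearest 0 being -0.17 for Fech. Within months 4, 9 and 12 Bnip3l had a log2 fold change of 0.02. Of 11 genes of haemoglobin and haem clearance 1 fell, where 2.81% of all genes were called lower, so the call describes 1 gene and not the list. It was the haem transporter Slc48a1 (-0.21 ± 0.06, adjusted p = 0.0458), a call that was lost in 26 of the 30 fits without 1 library. Hp and Hpx, the plasma proteins that bind free haemoglobin and haem, averaged 2971 and 3982 CPM in 56Fe livers and 3076 and 4118 CPM in control livers. Their adjusted p-values were 0.849 and 0.863. Hmox1, which breaks haem down, had -0.60 ± 0.23 with an adjusted p of 0.135, and Cd163, the macrophage receptor for haemoglobin bound to Hp, had -0.04 ± 0.15 with 0.899.

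Markers of other blood cells, and of Kupffer cells in the liver, were read as whole lists beside these results. Of the platelet, neutrophil, B cell, T and NK cell, monocyte and Kupffer cell lists, 9, 10, 8, 8, 8 and 14 genes were tested, and edgeR called 0 of them for the mean over months. At an unadjusted p under 0.05 the counts were 1, 0, 0, 0, 1 and 0, where 22.1% of all genes had one. Their median log2 fold changes were -0.13, -0.45, -0.09, -0.03, -0.30 and -0.25 in the same order, against -0.002 for all genes. The summed neutrophil level was 3.00 to 26.7 CPM in 56Fe livers and 3.32 to 75.5 CPM in control livers. The summed platelet level was 25.6 to 42.3 CPM in 56Fe livers and 24.5 to 67.5 CPM in control livers. The summed Kupffer cell level was 375.5 to 1188 CPM in 56Fe livers and 357.4 to 1783 CPM in control livers, with a negative log2 fold change for the mean over months in 14 of 14 genes. That was 10 of 10 genes for neutrophils. At month 2, where the Hbb-bs log2 fold change was largest in size, the neutrophil median was -2.09 with 10 of 10 genes negative, and the Kupffer cell median -0.69 with 13 of 14 negative. The median of all genes at that month was -0.019. At months 4 and 12 the medians of both lists were negative, -0.68 and -1.35 for neutrophils and -0.36 and -0.725 for Kupffer cells. At months 1 and 9 they were positive, 0.58 and 0.95 for neutrophils and 0.19 and 0.35 for Kupffer cells. At months 1 and 9 Hba-a1 had log2 fold changes of -0.91 and -1.02, and Hbb-bs had -0.69 and -0.62. The summed neutrophil level at month 2 was 4.24, 4.46 and 3.68 CPM in 56Fe livers, against 5.11, 50.8 and 13.5 CPM in control livers, and control replicates 2 and 3 were also those with the higher Hbb-bs. The part of these cells in the globin result was not tested.

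**Figure D5:**
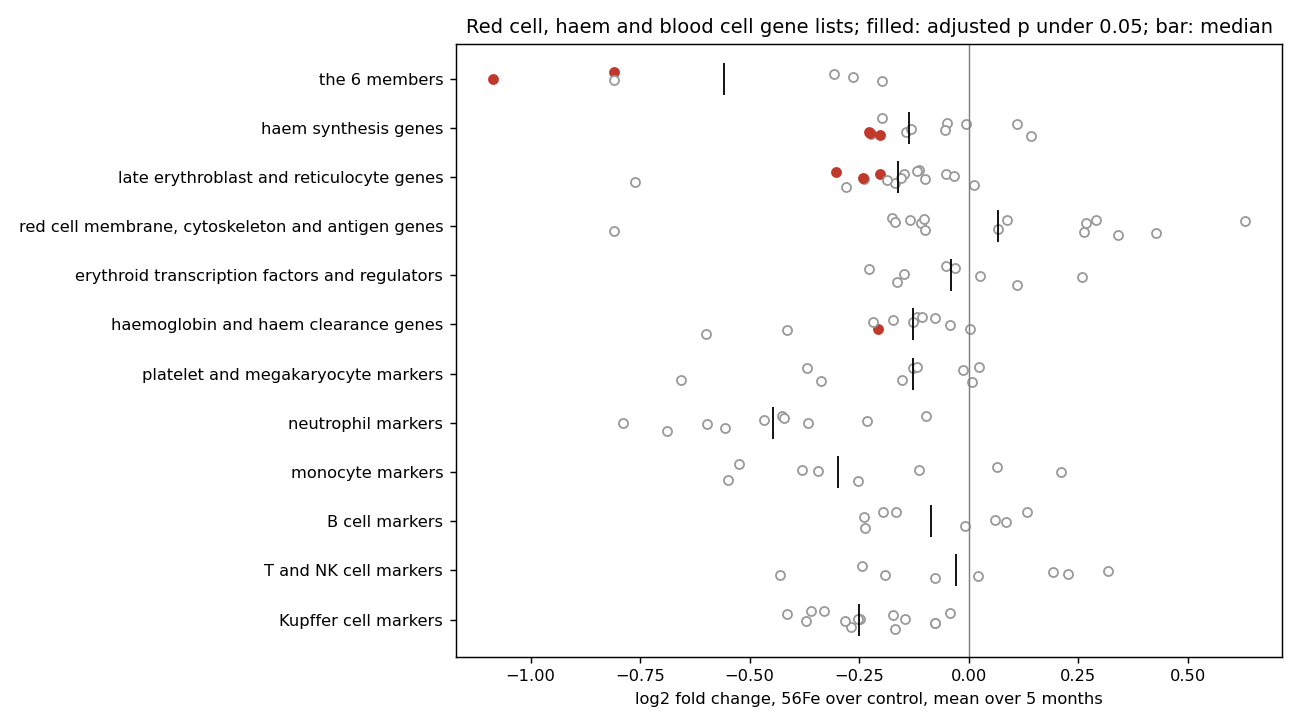
Log2 fold change of 56Fe over control as the mean over 5 months (horizontal axis) for the 6 members and the tested genes of 11 lists, 1 point a gene, with filled red points for an adjusted p under 0.05 and a black bar for each median. Hba-a1 at -1.09 and Hbb-bs at -0.81 lie left of the called haem and reticulocyte genes at -0.30 to -0.20.

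The genes whose level followed the members most closely were looked for among 12267 named genes with a mean of at least 1 CPM. Over all 30 libraries the mean of the members' standardised levels was followed most closely by Ralb (r = 0.889), Pole4, Pam, Emc2, Pdcl, Pih1d1, Tusc2, Colec11, Mrps18c and Lsm4 (r = 0.856). These points share the split between months 1 and 2 and the later months. On deviations from the group means the closest were Adamts9 (r = 0.742), Ggt5, Xylt1, Fbf1, Hpgds, Susd2, Impact, Sparc, Klhl15 and Aebp2 (r = 0.651). The members' own r with that mean were 0.941 for Hbb-bs, 0.840 for Hba-a1, 0.832 for Hbb-bt, 0.702 for Hba-a2, 0.674 for Slc4a1 and 0.208 for Alas2.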

How the data were processed

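The authors deposited raw counts per gene. Per the series' design text, reads were aligned to GRCm38 with STAR 2.5.3a, counted with its GeneCounts mode and annotated with Gencode M14; the strand column is not given in the sources used here. Per the labels' protocols, total RNA was depleted of ribosomal RNA and sequenced in paired 50-base reads. Libraries held 7995248 to 20215995 counts.

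From these counts, genes were filtered with filterByExpr (minimum count 10, total 15), scaled by TMM and fitted with edgeR 4.0.16 (robust quasi-likelihood, 1 coefficient per group, all 30 libraries) in R 4.3.3, with Benjamini-Hochberg adjustment over 19685 genes at 0.05. DESeq2 1.42.0 and limma 3.58.1 were alternatives. The fit was tested on simulated data. Correlations used 100000 permutations; correlations of deviations permuted them within groups. Gene models came from Gencode M21 and promoters from RefSeq GRCm38.p6.

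The members and lists were chosen with earlier results of these data known. Named genes were the members, up to 4 called genes per list and comparison, a preset set of red cell and haem genes, and the 10 most alike by correlation. Ahsp and Fam46c were not analysed here. Some genes of that set are not reported here. The labels call the 3 samples of a group biological replicates and do not say which animals they came from. Same-numbered deviations correlated at -0.384 to 0.346, and 6 of 15 exceeded 0.1, so replicate numbers did not pair the samples as a whole. At month 12 all 3 exceeded 0.1 (0.186, 0.346 and 0.186), and on that cut alone the numbers were taken to pair the samples there. Replicate 3 of month 12 correlated more with another number (0.233) than with its own (0.186), so this pairing is uncertain. For replicates 1 and 2 the highest values with another number were -0.0121 and -0.146. The replicate block called 0 of 6 members at month 12 too. In all 30 pairs of libraries of 1 group counts differed beyond sampling noise.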

Additional observations from a re-analysis of the deposited data

Results flagged for a closer look

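The effect of irradiation differed between months for 5 of 62 tested genes of the 6 red cell, globin and haem lists (8.07%) by the interaction test of edgeR, adjusted over all genes, where 11% of all genes were called. The share is no higher than that of all genes, so the values below describe single genes and not the lists. Alas1, the hepatocyte counterpart of Alas2, had an adjusted p of 0.00516. It averaged 128 ± 66.5 CPM in 56Fe and 902 ± 176 CPM in control livers at month 1 (SD, n = 3 each), and 585 ± 59.7 CPM in 56Fe and 270 ± 56.9 CPM in control livers at month 9. Tfrc, the transferrin receptor through which cells take up iron, had an adjusted p of 0.00448. It averaged 45.7 ± 12.1 CPM in 56Fe and 85.3 ± 19.7 CPM in control livers at month 4, and 100.5 ± 7.45 CPM in 56Fe and 56.8 ± 17.6 CPM in control livers at month 9. Bnip3l had an adjusted p of 0.00594, with log2 fold changes of -0.63 at month 1 and 0.34 at month 12. Slc25a37, the mitochondrial iron importer mitoferrin, had an adjusted p of 0.0267, with -0.51 at month 1 and 0.24 at month 4. Ubb, a ubiquitin gene, had an adjusted p of 0.0267, with -0.45 at month 1 and 0.34 at month 9.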

How the results depend on the processing

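For the mean over months the count of members called was 2, among 1035 genes. It was 1 with the Gm26917 level as covariate, among 108 genes. In months 1 and 2 alone it was 1, among 2052 genes, and in months 4, 9 and 12 alone 0, among 4. The last 2 settings were added after seeing the data and use fewer libraries. The count was 3 with no low-count filter (Slc4a1, adjusted p = 0.0456), among 725 genes, and 3 with the replicate block (Slc4a1, adjusted p = 0.0269), among 1607. Over single left-out libraries it was 2 to 3. At month 2 the count, 0, was 1 under the stricter filter, DESeq2, voom and the 6 compared libraries alone, among 1097, 1427, 3668 and 3026 genes. Over left-out libraries it was 0 to 1. At month 4 the count was 2 under DESeq2 and voom, among 1265 and 2002 genes. The change over months fell to 0 members in each arm with the Gm26917 covariate. Between months 2 and 1 in control livers the count was 1 with no filter and with DESeq2, among 1405 and 2238 genes. Over left-out libraries it was 0 to 3. Between months 12 and 9 in control livers it was 1 under the stricter filter and voom, among 3462 and 4087 genes. Over left-out libraries it was 0 to 1 there, as in 56Fe livers. Why these counts moved was not tested.

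The log2 fold changes that changed sign were uncalled, save that of Bnip3l for the mean over months, 0.0183 in months 4, 9 and 12 alone. For Hba-a2 they were 0.206 (voom) and 0.644 (Gm26917 covariate) at month 1, 0.588 (covariate) at month 4 and -0.0982 (voom) at month 9. At month 12 Hba-a2 had 0.0124 with RLE factors, 0.047 with upper quartile factors, 0.0227 with totals without Gm26917, Malat1 and mitochondrial genes, 0.0391 under the stricter filter, 0.0142 with DESeq2, 0.484 with voom, 0.0391 with the replicate block and 0.0154 in the 6 libraries alone. Hbb-bs at month 12 had 0.203 with voom. Alas2 had 0.0314 at month 4 with the covariate, and at month 12 -0.0133 with no filter, -0.346 with the covariate and -0.00558 with the replicate block. Over left-out libraries the ranges that crossed 0 were -1.54 to 1.47 for Hba-a2, -0.0787 to 0.437 for Hbb-bt and -1.24 to 0.421 for Slc4a1 at month 1. At month 9 they were -0.216 to 0.161 for Hba-a2 and -0.139 to 0.0448 for Alas2. At month 12 they were -0.218 to 0.582 for Hba-a2, -0.455 to 0.23 for Hbb-bs, -0.0493 to 0.71 for Hbb-bt and -0.199 to 0.314 for Alas2. For the mean over months the range of Hba-a2 was -0.538 to 0.0529. Hba-a2 and Slc4a1, with at most 22 and 34 counts a library, are limited by depth.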
